A study of Mus musculus with 9 samples.

Results

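The genes described here are 37 genes of the mouse cell cycle: cyclins, cyclin-dependent kinases (CDKs), CDK inhibitors, the E2F and Rb regulators of S phase entry, the replicative helicase with its sliding clamp, mitotic genes, and the transcription factors Myc and Mycn. They were chosen by name, all 37 were found among the 54532 genes of the deposited count table, and all 37 passed the filter on low counts, which left 16772 genes to test. RNA-seq was done on neural tube organoids, which are small hollow epithelia that embryonic stem cells of the mouse line R1 (genotype FoxA2-Venus) form as clones in Matrigel and N2B27 medium. Venus is a yellow-green fluorescent protein that here reports FoxA2, a transcription factor of the floor plate at the ventral midline of the neural tube.

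Medium was changed on day 2, cells were collected 66 hours later, and they were separated by flow cytometry into a bright (GFP+) and a dim (GFP-) population with a filter set for GFP. The 3 groups, of 3 biological replicates each, were GFP+ cells from medium with SAG (SAG GFP+), GFP+ cells from medium with all-trans retinoic acid (RA GFP+), and GFP- cells from medium with RA (RA GFP-). SAG is the name of a small molecule agonist of Smoothened, the signal transducer of the Hedgehog pathway. SAG medium is taken to lack RA, its SAG dose is not given in the sources used here, and the sources give the RA dose once in nM and once in µM (250 in both). GFP- cells from SAG medium were not analysed here, so sort and medium cannot be told apart in the comparison of SAG GFP+ with RA GFP-. All groups come from the same cell line and carry the same reporter.

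The cell cycle runs from G1 through DNA replication in S phase and G2 to mitosis. In G1, D cyclins with CDK4 or CDK6 and then E cyclins with CDK2 phosphorylate Rb, which releases E2F factors to switch on genes of DNA replication, while A and B cyclins with CDK2 and CDK1 carry cells through S phase into mitosis. The Cip/Kip and INK4 inhibitors oppose these kinases. In the embryonic neural tube most progenitors divide, floor plate cells divide less than their neighbours, and cells leave the cycle as they become neurons. Embryonic stem cells have a short G1 and high levels of E cyclins.

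Library totals were between 25281871 and 29763765 counts, and the members had between 844 (Cdkn2b) and 262710 (Top2a) counts over all 9 libraries. The reporter gene followed the sort: Foxa2 was at 326, 212 and 205 CPM (a count scaled to a common library size) in SAG GFP+ libraries, at 184, 157 and 133 CPM in RA GFP+ libraries, and at 2.47, 1.33 and 2.51 CPM in RA GFP- libraries. The groups also differed in markers of other cell states. The summed level of 9 pluripotency markers was 64.4 to 218 CPM in SAG GFP+ libraries, 56.0 to 70.7 CPM in RA GFP+ libraries and 919 to 1460 CPM in RA GFP- libraries, with none of the 9 at 0 in all libraries of a group. The summed level of 8 neuron markers was 355 to 583 CPM in SAG GFP+, 76.7 to 88.5 CPM in RA GFP+ and 289 to 414 CPM in RA GFP-, and that of 6 neural progenitor markers was 1010 to 1080, 337 to 514 and 1030 to 1150 CPM in the same order of groups. Markers of endoderm and mesenchyme were low but not even between groups. The summed level of 7 endoderm markers averaged 91.9 ± 9.13 CPM in SAG GFP+, 123 ± 39.4 CPM in RA GFP+ and 89.5 ± 12.3 CPM in RA GFP- (SD, n = 3 each), with overlap between the groups, and that of 8 mesenchyme markers was 28.6 to 44.7, 54.6 to 67.4 and 19.6 to 26.1 CPM. Afp was at 0 in all libraries of SAG GFP+ and RA GFP-, Ttr in all of RA GFP-, and Osr1 in all of SAG GFP+. Sox17, which marks endoderm, was at 0.90, 0.34 and 0.04 CPM in SAG GFP+, 34.7, 49.0 and 55.3 CPM in RA GFP+, and 1.69, 0.99 and 1.29 CPM in RA GFP-. SAG GFP+ replicate 1 stood apart from the other libraries of its group in Pou5f1, at 171 CPM against 37.4 and 39.3 CPM, which made up most of its pluripotency sum of 218 CPM. Other pluripotency markers varied: Tdh was at 3.26 against 0.787 and 1.48 CPM, Nanog at 26.9 against 13.1 and 23.4 CPM, and Esrrb at 2.00 against 2.44 and 1.71 CPM. The calls that change without SAG GFP+ replicate 1 are given beside the genes. In bulk samples, fewer cells of a type and less RNA per cell cannot be told apart, so a level below is a share of the RNA of a sorted population.

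**Figure D1:**
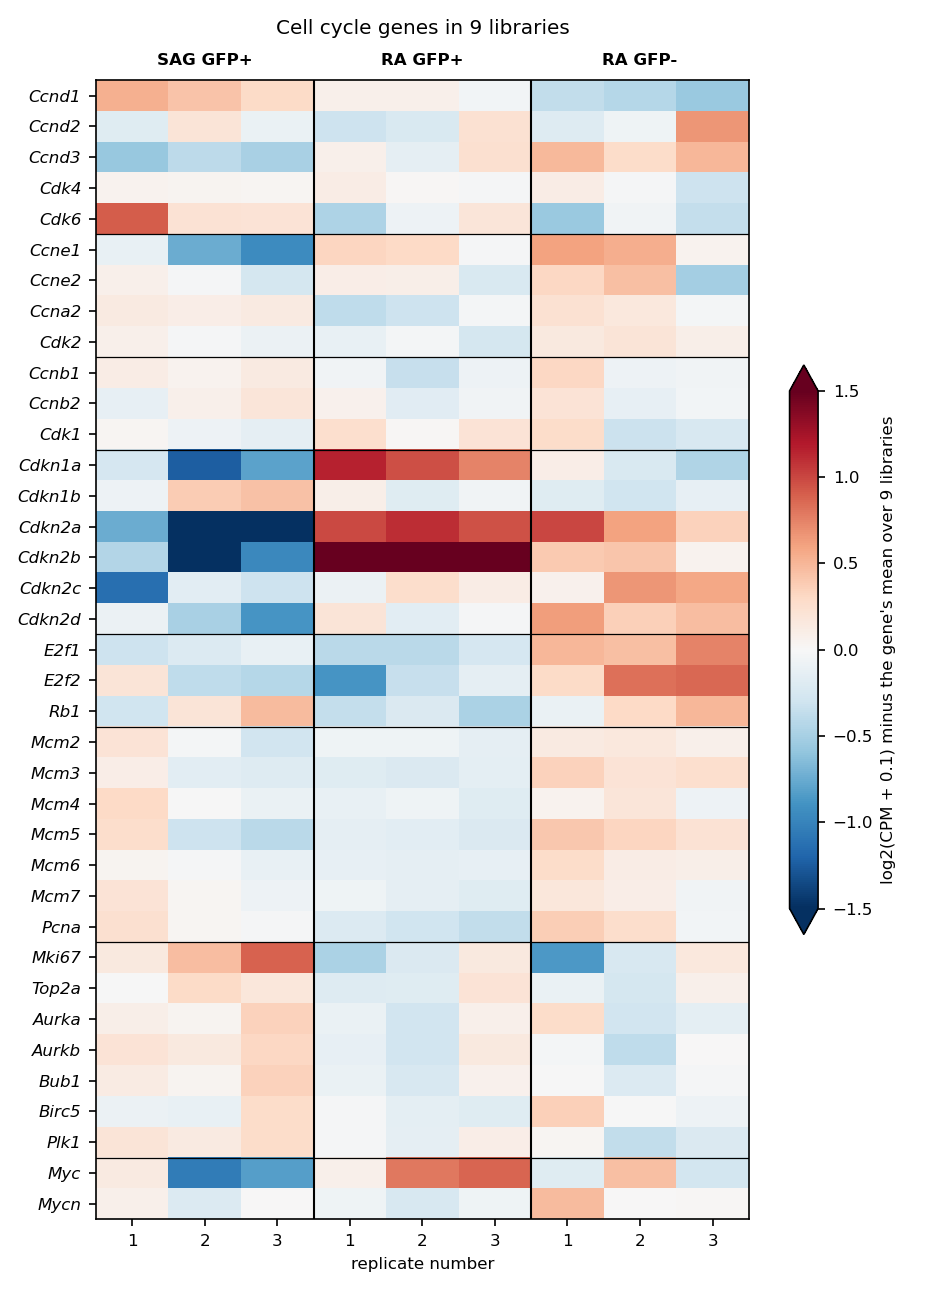
Level of each of the 37 cell cycle genes in each of the 9 libraries, as log2(CPM + 0.1) minus the gene's mean over the 9 libraries (red above, blue below; the colour scale ends at -1.5 and 1.5). Rows are grouped by role and columns by group; E2f1 and E2f2 are red in the RA GFP- columns, and Cdkn1a, Cdkn2a and Cdkn2b are red in the RA GFP+ columns and blue in the SAG GFP+ columns.

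Between GFP+ and GFP- cells of RA medium, where the medium is held and the sort differs, 2 members rose (Ccnd1 and Cdkn1a) and 4 fell (E2f1, E2f2, Mcm3 and Pcna) in edgeR's quasi-likelihood test at a Benjamini-Hochberg adjusted p under 0.05. That is 16.2% of the 37 members, close to the 16.9% of all tested genes that were called in this comparison (8.49% higher and 8.43% lower). The median log2 fold change was -0.20 over the members and -0.02 over all tested genes. The groups did not overlap for 17 members (45.9%), of which 14 were lower and 3 higher in GFP+ cells, against 36.4% of all tested genes. GFP+ and GFP- libraries of the same replicate number deviated together across genes. With the number as a block in the fit of all 9 libraries, 2 members rose and 8 fell, and in a blocked fit of the RA libraries alone 4 rose and 11 fell. Over all tested genes the calls rose too, from 1424 higher and 1414 lower to 1947 and 1864 in the first of these fits. In the second, 2615 of 16257 genes were called higher and 2625 lower. Without RA GFP+ replicate 2, 2 members fell in place of 4, and over all tested genes 890 fell in place of 1414.

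Between SAG and RA medium within GFP+ cells, 2 members rose (Ccnd1 and Ccna2) and 6 fell (Ccnd3, Ccne1, Cdkn1a, Cdkn2a, Cdkn2b and Myc). That is 21.6% of the members, against 24.5% of all tested genes (9.78% higher and 14.8% lower). The median log2 fold change was 0.12 over the members and -0.02 over all tested genes. The groups did not overlap for 13 members (35.1%), against 42.9% of all tested genes. The 2 rises were sensitive to single libraries: none was called with RA GFP+ replicate 1 or 2 or SAG GFP+ replicate 2 left out, 1 without RA GFP- replicate 2 or SAG GFP+ replicate 3, and 4 members were called higher without RA GFP- replicate 1 or 3 or SAG GFP+ replicate 1. Without SAG GFP+ replicate 1, 7 members fell. Over all tested genes the count called higher moved from 1641 to 954 and 957 without RA GFP+ replicates 1 and 2. It was 1110 without SAG GFP+ replicate 2 and 2092 without SAG GFP+ replicate 1.

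Between SAG GFP+ and RA GFP- cells, 5 members rose (Ccnd1, Cdk6, Cdkn1b, Mki67 and Plk1) and 8 fell (Ccnd3, Ccne1, Cdkn2a, Cdkn2c, Cdkn2d, E2f1, E2f2 and Mcm3), which is 35.1% of the members against 28.5% of all tested genes (12% higher and 16.5% lower). The median log2 fold change was -0.12 over the members and -0.01 over all tested genes, and the groups did not overlap for 17 members (45.9%) against 41.1% of all tested genes. With RA GFP- replicate 1 or 2 or SAG GFP+ replicate 2 or 3 left out, 2 members rose, and 3 did with RA GFP- replicate 3 or RA GFP+ replicate 2 left out. With RA GFP- replicate 2 or 3 or SAG GFP+ replicate 3 left out, 5 fell. Without SAG GFP+ replicate 1, 5 rose and 11 fell. Over all tested genes 2014 rose and 2773 fell in the reported fit. Those counts were 1351 and 2014 without SAG GFP+ replicate 2, and 2581 and 3295 without SAG GFP+ replicate 1. This comparison uses the groups of the others, as the first and the second share RA GFP+, so the calls are not independent of each other. Of the 37 members, 18 were called in at least 1 of the 3 comparisons and 19 in none, and Ccnd1 was the only one called in all 3.

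**Figure D2:**
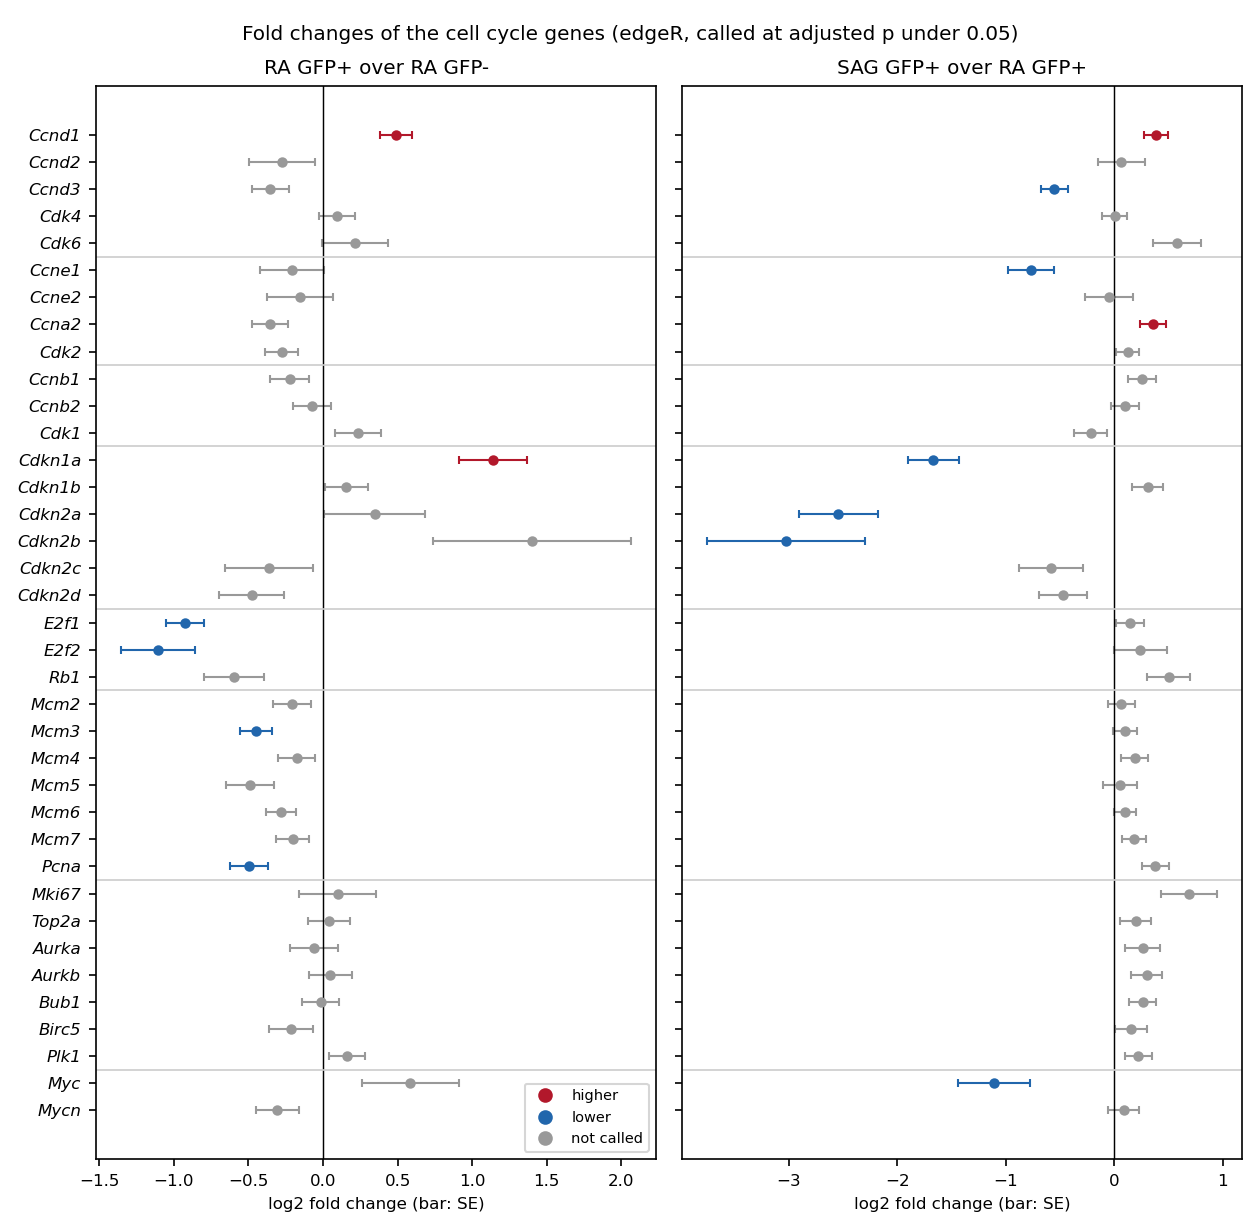
Log2 fold change of each member with its standard error (SE, bars) in RA GFP+ over RA GFP- and in SAG GFP+ over RA GFP+, coloured by the call (edgeR, adjusted p under 0.05). On the left, 2 members are called higher and 4 lower, and on the right 2 higher and 6 lower, with the longest shifts among the CDK inhibitors.

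The D cyclins couple growth signals to the CDK4 and CDK6 kinases at the start of G1. Ccnd1 (cyclin D1, ENSMUSG00000070348, minus strand of chr7:144929931-144939925, GRCm38) was at 629, 589 and 534 CPM in SAG GFP+ libraries, 459, 458 and 425 CPM in RA GFP+ libraries, and 338, 323 and 296 CPM in RA GFP- libraries. The 3 groups did not overlap, with SAG GFP+ highest and RA GFP- lowest. Ccnd1 rose in RA GFP+ over RA GFP- by a log2 fold change of 0.49 (SE 0.11, edgeR adjusted p = 0.00873), in SAG GFP+ over RA GFP+ by 0.38 (SE 0.11, adjusted p = 0.0217), and in SAG GFP+ over RA GFP- by 0.87 (SE 0.11, adjusted p = 0.000132). The middle result did not pass with any of the RA GFP+ replicates 1, 2 and 3, or SAG GFP+ replicate 2, left out (adjusted p = 0.0646, 0.0658, 0.0812 and 0.0585), with a log2 fold change of 0.35 to 0.40. Of the exon bases of Ccnd1, 23.4% also belong to LTO1 on the opposite strand, which had 4468 counts over all libraries against 108223 for Ccnd1. The strand setting of the counting is not given in the sources used here.

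Ccnd3 (cyclin D3, on chromosome 17) ran the other way. It was at 119, 134 and 126 CPM in SAG GFP+ libraries, 186, 161 and 208 CPM in RA GFP+ libraries, and 246, 214 and 248 CPM in RA GFP- libraries, again with no overlap between groups but with RA GFP- highest. Ccnd3 fell by 0.55 on the log2 scale in SAG GFP+ over RA GFP+ (SE 0.12, edgeR adjusted p = 0.00696) and by 0.90 in SAG GFP+ over RA GFP- (SE 0.12, adjusted p = 0.000274). In RA GFP+ over RA GFP- its log2 fold change of -0.35 (SE 0.12) missed the threshold (adjusted p = 0.0720) and passed it with the replicate block (adjusted p = 0.0411 in all 9 libraries). Ccnd2 (cyclin D2) had overlapping groups, with replicate 3 highest in both RA groups: it was at 437, 566 and 461 CPM in SAG GFP+, 399, 422 and 578 CPM in RA GFP+, and 434, 475 and 781 CPM in RA GFP-, and it was called in none of the comparisons (edgeR adjusted p = 0.454, 0.859 and 0.515 for RA GFP+ over RA GFP-, SAG GFP+ over RA GFP+ and SAG GFP+ over RA GFP-).

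Per exon length, as FPKM (the CPM per kilobase of exon), the 3 D cyclins summed to 190 ± 12.2 FPKM in SAG GFP+, 166 ± 8.49 FPKM in RA GFP+ and 155 ± 17.0 FPKM in RA GFP- (SD, n = 3 each). Ccnd1 made up 65.2 ± 3.44% of that sum in SAG GFP+, 57.5 ± 5.26% in RA GFP+ and 44.4 ± 7.22% in RA GFP-. The share of Ccnd3 was 7.58 ± 0.543%, 12.7 ± 1.14% and 17.5 ± 1.54% in the same order. The Ccnd3 shares of the 3 groups did not overlap.

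**Figure D3:**
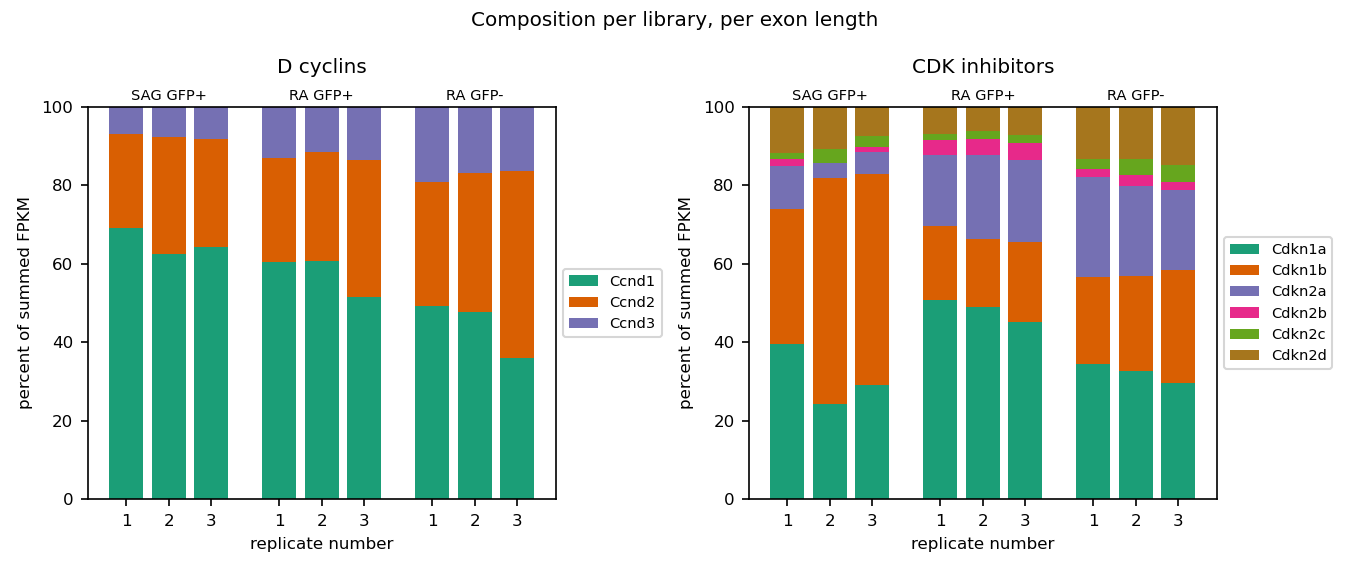
Share of each D cyclin in the summed FPKM of the 3 D cyclins (left) and of each CDK inhibitor member in the summed FPKM of those 6 members (right), in percent, for each library. Cdkn1c is not a member and is left out. The Ccnd1 share averages 65.2% in SAG GFP+, 57.5% in RA GFP+ and 44.4% in RA GFP-, and Cdkn1b averages 48.6% of the inhibitor sum in SAG GFP+ against 18.9% in RA GFP+.

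CDK4 and CDK6 are the kinases that D cyclins bind. Cdk4 was at 881 to 895 CPM in SAG GFP+, 853 to 934 CPM in RA GFP+ and 699 to 934 CPM in RA GFP-, and it was called in none of the comparisons. It made up 97.9% of the summed FPKM of Cdk4 and Cdk6 in SAG GFP+, 98.6% in RA GFP+ and 98.7% in RA GFP-. Cdk6 was at 112, 69.8 and 68.9 CPM in SAG GFP+, 43.6, 56.7 and 67.9 CPM in RA GFP+, and 40.7, 57.5 and 46.7 CPM in RA GFP-. All SAG GFP+ libraries were above all others for Cdk6, by little in replicates 2 and 3. It rose in SAG GFP+ over RA GFP- (log2 fold change 0.79, SE 0.22, edgeR adjusted p = 0.0207), which was lost without RA GFP- replicate 1 or 3 (adjusted p = 0.0695 and 0.0512), and its log2 fold change of 0.58 (SE 0.22) in SAG GFP+ over RA GFP+ was not called (adjusted p = 0.0803).

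The E and A cyclins bind CDK2 at S phase entry and, for cyclin A2, CDK1 later. Ccne1 (cyclin E1) was at 115, 74.3 and 64.4 CPM in SAG GFP+ libraries, 155, 153 and 123 CPM in RA GFP+ libraries, and 189, 181 and 129 CPM in RA GFP- libraries. Every SAG GFP+ library was below every RA library, with replicate 1 nearest to them. Ccne1 fell by 0.77 on the log2 scale in SAG GFP+ over RA GFP+ (SE 0.21, edgeR adjusted p = 0.0223) and by 0.98 in SAG GFP+ over RA GFP- (SE 0.22, adjusted p = 0.00579). The SAG GFP+ over RA GFP+ result was not called without RA GFP+ replicate 1 or 2 or SAG GFP+ replicate 2 or 3 (adjusted p = 0.0733 to 0.0933). Ccne2 (cyclin E2) was at 30.7 to 38.8 CPM in SAG GFP+, 31.3 to 39.4 CPM in RA GFP+ and 25.8 to 50.4 CPM in RA GFP- and was not called. However, 17.4% of its exon bases lie in Ints8 on the opposite strand, which has more counts (30398 against 9065), so its level is uncertain. Ccne1 held 75.2 ± 3.74%, 83.8 ± 0.02% and 84.6 ± 2.14% of the summed E cyclin FPKM in SAG GFP+, RA GFP+ and RA GFP- (SD, n = 3 each).

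Ccna2 (cyclin A2) was at 312, 306 and 314 CPM in SAG GFP+, 219, 230 and 279 CPM in RA GFP+, and 334, 317 and 280 CPM in RA GFP-. RA GFP+ held the 3 lowest values. Ccna2 rose in SAG GFP+ over RA GFP+ (log2 fold change 0.36, SE 0.12, edgeR adjusted p = 0.0474), a call lost in 7 of the 16 alternatives, with an adjusted p of up to 0.196 without RA GFP+ replicate 1. Its log2 fold change in RA GFP+ over RA GFP- was -0.36 (SE 0.12, adjusted p = 0.0632; 0.0390 with the replicate block in the RA libraries alone). Cdk2 was at 102 to 115 CPM in SAG GFP+, 90.5 to 107 CPM in RA GFP+ and 116 to 124 CPM in RA GFP-; its log2 fold change of -0.28 in RA GFP+ over RA GFP- was not called (adjusted p = 0.110; 0.0302 with that block).

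The B cyclins with CDK1 drive entry into mitosis. Ccnb1 was at 213 to 225 CPM in SAG GFP+, 161 to 198 CPM in RA GFP+ and 194 to 255 CPM in RA GFP-. Ccnb2 was at 137 to 170, 133 to 156 and 138 to 173 CPM, and Cdk1 at 170 to 191, 189 to 223 and 149 to 226 CPM, in the same order. In the reported edgeR fit none of these 3 genes was called in any comparison, none had an unadjusted p under 0.05, and DESeq2 called none. Without RA GFP- replicate 1, edgeR called Cdk1 higher in RA GFP+ over RA GFP- (adjusted p = 0.0257). The 95% interval of the log2 fold change in RA GFP+ over RA GFP- was -0.51 to 0.06 for Ccnb1, -0.35 to 0.21 for Ccnb2 and -0.10 to 0.57 for Cdk1.

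In each of the 3 comparisons the member with the largest fold change in either direction was a CDK inhibitor. The Cip/Kip inhibitors Cdkn1a (p21) and Cdkn1b (p27) bind cyclin-CDK complexes of several kinds, and Cdkn1a is a target of p53. Cdkn1a (ENSMUSG00000023067, plus strand of chr17:29090976-29100727) was at 88.2, 44.6 and 60.2 CPM in SAG GFP+ libraries, 233, 204 and 175 CPM in RA GFP+ libraries, and 113, 89.5 and 76.4 CPM in RA GFP- libraries. Every RA GFP+ library was above every other library, while SAG GFP+ and RA GFP- overlapped. Cdkn1a was 2.20-fold as high in RA GFP+ as in RA GFP- (log2 fold change 1.14, SE 0.23, edgeR adjusted p = 0.00537) and 0.315-fold as high in SAG GFP+ as in RA GFP+ (log2 fold change -1.67, SE 0.23, adjusted p = 0.000365). Both calls held under all 16 alternatives. Its log2 fold change of -0.53 in SAG GFP+ over RA GFP- was not called (SE 0.23, adjusted p = 0.102). It was called without SAG GFP+ replicate 1 (log2 fold change -0.80, adjusted p = 0.0114), with no low-count filter (adjusted p = 0.0129) and with the replicate block (adjusted p = 0.0147 in all 9 libraries).

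Cdkn1b was at 99.1, 136 and 141 CPM in SAG GFP+, 111, 92.3 and 101.2 CPM in RA GFP+, and 92.4, 84.7 and 96.2 CPM in RA GFP-. SAG GFP+ replicates 2 and 3 were above all other libraries and replicate 1 was within the range of RA GFP+. It rose in SAG GFP+ over RA GFP- (log2 fold change 0.46, SE 0.15, edgeR adjusted p = 0.0333), which was lost without RA GFP- replicate 1 or 2 or SAG GFP+ replicate 2 or 3 (adjusted p = 0.0608 to 0.115). Without SAG GFP+ replicate 1 it was also called in SAG GFP+ over RA GFP+ (log2 fold change 0.47, adjusted p = 0.0174).

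The INK4 inhibitors bind CDK4 and CDK6. Cdkn2a and Cdkn2b are neighbours on the minus strand of chromosome 4 (chr4:89274471-89294653 and chr4:89306299-89311039, GRCm38). Counts per gene do not separate the Cdkn2a transcripts of the INK4 inhibitor p16 from those of ARF, an activator of p53. Cdkn2a was at 8.07, 2.32 and 3.93 CPM in SAG GFP+ libraries, 27.2, 29.5 and 26.6 CPM in RA GFP+ libraries, and 27.4, 20.8 and 17.4 CPM in RA GFP- libraries. Both RA groups were above all SAG GFP+ libraries and overlapped each other. Cdkn2a fell to 0.172-fold in SAG GFP+ over RA GFP+ (log2 fold change -2.54, SE 0.36, edgeR adjusted p = 0.000442) and by 2.20 on the log2 scale in SAG GFP+ over RA GFP- (SE 0.36, adjusted p = 0.000941), and its log2 fold change of 0.35 (SE 0.34) in RA GFP+ over RA GFP- was not called (adjusted p = 0.548).

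Cdkn2b was the least abundant member. It had 37, 0 and 26 counts in SAG GFP+ libraries, 179, 200 and 193 counts in RA GFP+ libraries, and 78, 74 and 57 counts in RA GFP- libraries. These are 1.51, 0 and 1.01 CPM, 7.02, 6.72 and 6.73 CPM, and 2.75, 2.82 and 2.17 CPM, where a count of 0 in SAG GFP+ replicate 2 allows up to 3 counts, or 0.112 CPM. No groups overlapped, and RA GFP+ was highest. Cdkn2b fell to 0.123-fold in SAG GFP+ over RA GFP+ (log2 fold change -3.03, SE 0.73, edgeR adjusted p = 0.0103). In RA GFP+ over RA GFP- its log2 fold change was 1.40 with an SE of 0.66 and was not called (adjusted p = 0.186), but it was with the replicate block in the RA libraries alone (adjusted p = 0.000902). Its log2 fold change in SAG GFP+ over RA GFP- was -1.63 (adjusted p = 0.111), and -2.32 without SAG GFP+ replicate 1 (adjusted p = 0.0396).

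Cdkn2c (p18) and Cdkn2d (p19) had their lowest mean levels in SAG GFP+ too. Cdkn2d was at 11.7, 8.88 and 6.70 CPM in SAG GFP+, 14.2, 11.2 and 12.3 CPM in RA GFP+, and 19.4, 16.04 and 17.2 CPM in RA GFP-, and it fell by 0.95 on the log2 scale in SAG GFP+ over RA GFP- (SE 0.22, edgeR adjusted p = 0.00796). Cdkn2c was at 2.44, 4.91 and 4.40 CPM in SAG GFP+, 5.13, 6.59 and 5.89 CPM in RA GFP+, and 5.72, 8.73 and 8.22 CPM in RA GFP-. It fell in the same comparison (log2 fold change -0.95, SE 0.30, adjusted p = 0.0352), which did not pass when RA GFP- replicate 2 or 3 or SAG GFP+ replicate 1 or 3 was left out (adjusted p = 0.0616 to 0.106). Neither was called in SAG GFP+ over RA GFP+ (adjusted p = 0.183 for Cdkn2c and 0.147 for Cdkn2d; for Cdkn2d 0.0357 without SAG GFP+ replicate 1) or in RA GFP+ over RA GFP- (Cdkn2d adjusted p = 0.171; 0.0210 with the block in the RA libraries alone).

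The 6 inhibitors together summed to 57.6 ± 5.47 FPKM in SAG GFP+, 119 ± 10.1 FPKM in RA GFP+ and 80.6 ± 9.89 FPKM in RA GFP- (SD, n = 3 each). Cdkn1a made up 30.9 ± 7.80%, 48.3 ± 2.83% and 32.2 ± 2.55% of the sum in that order, and Cdkn1b 48.6 ± 12.3%, 18.9 ± 1.55% and 25.1 ± 3.50%. The sum was highest in RA GFP+, where Cdkn1a led it, and lowest in SAG GFP+, where Cdkn1b led it in replicates 2 and 3. Cdkn1c, another Cip/Kip inhibitor, is not a member and is left out of the sum. Its CPM, given below, was above that of Cdkn1a and of Cdkn1b in every library.

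**Figure D4:**
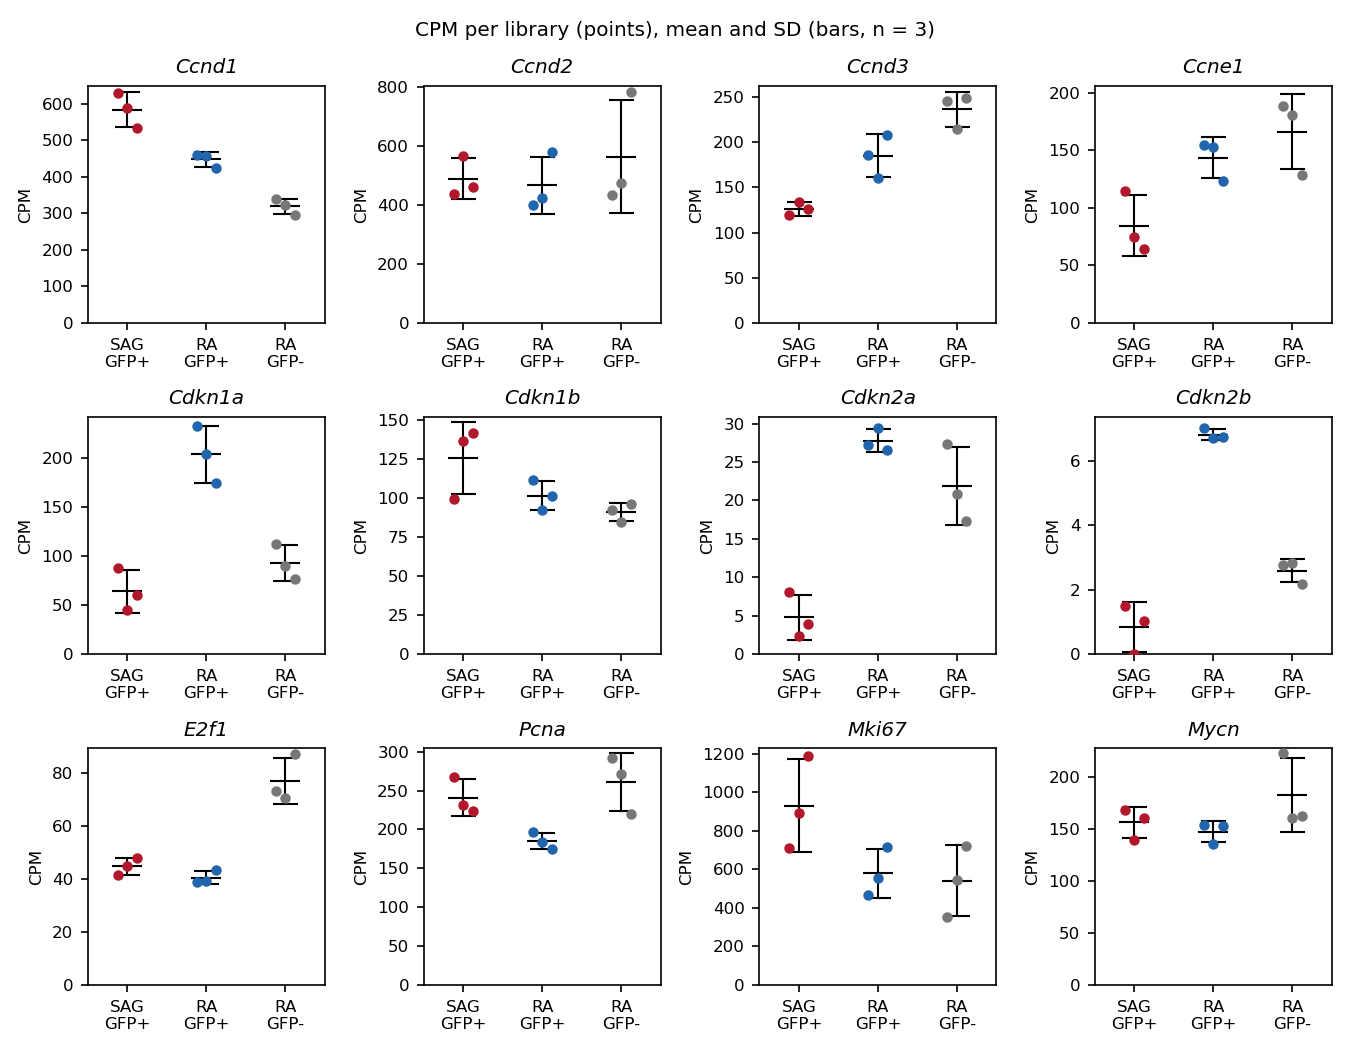
CPM of 12 members in each library (points), with the mean and SD of each group (bars, n = 3), for SAG GFP+, RA GFP+ and RA GFP-. Ccnd1 steps down and Ccnd3 steps up across the groups as drawn, Cdkn1a and Cdkn2b are highest in RA GFP+, and E2f1 is at 70.7 to 87.2 CPM in RA GFP- against 39.0 to 47.9 CPM in the GFP+ groups.

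E2F1 and E2F2 are activating E2F factors, and Rb is the pocket protein that holds them inactive. E2f1 (ENSMUSG00000027490, minus strand of chr2:154559407-154569892) was at 41.6, 45.0 and 47.9 CPM in SAG GFP+ libraries, 39.0, 39.2 and 43.5 CPM in RA GFP+ libraries, and 73.5, 70.7 and 87.2 CPM in RA GFP- libraries. Both GFP+ groups lay well below RA GFP- and overlapped each other. E2f1 fell by 0.93 on the log2 scale in RA GFP+ over RA GFP- (SE 0.13, edgeR adjusted p = 0.000562) and by 0.78 in SAG GFP+ over RA GFP- (SE 0.13, adjusted p = 0.000864), and its log2 fold change in SAG GFP+ over RA GFP+ was 0.15 (SE 0.13, not called).

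E2f2 was at 24.5, 16.5 and 16 CPM in SAG GFP+, 11.6, 16.9 and 19.6 CPM in RA GFP+, and 26.3, 38.2 and 39.3 CPM in RA GFP-, with all GFP+ libraries below all RA GFP- libraries. It fell by 1.11 on the log2 scale in RA GFP+ over RA GFP- (SE 0.25, edgeR adjusted p = 0.00917) and by 0.87 in SAG GFP+ over RA GFP- (SE 0.24, adjusted p = 0.0209; 0.0596 to 0.0865 without RA GFP- replicate 2 or 3 or SAG GFP+ replicate 2 or 3). Rb1 was at 51.9, 73.2 and 89.1 CPM in SAG GFP+, 49.98, 55.3 and 46.1 CPM in RA GFP+, and 59.7, 78.8 and 90.5 CPM in RA GFP-. RA GFP+ was below RA GFP- with no overlap, at a log2 fold change of -0.60 (SE 0.20, adjusted p = 0.0657; 0.0236 with the replicate block in all 9 libraries and 0.0237 without SAG GFP+ replicate 1). In SAG GFP+ over RA GFP+ it was called higher without that library (log2 fold change 0.71, adjusted p = 0.0128). Of its exon bases 8.1% are shared with Rcbtb2 on the opposite strand, which has more counts (44306 against 15898).

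The falls of E2f1 and E2f2 in GFP+ cells went with the pluripotency markers, whose summed level was 919 to 1460 CPM in RA GFP- against 56.0 to 218 CPM over the GFP+ libraries. The part of that marker difference in the E2F levels was not tested.

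MCM2 to MCM7 form the replicative helicase, and PCNA is the sliding clamp of the DNA polymerases. Per exon length the 6 Mcm genes were at mean levels of 66.3 to 129 FPKM in SAG GFP+, 63.4 to 113 FPKM in RA GFP+ and 73.2 to 133 FPKM in RA GFP-. All 7 replication members had a negative log2 fold change in RA GFP+ over RA GFP- (-0.18 to -0.50), as did 8685 of 16772 tested genes. All 7 were lower in GFP+ cells in each same-numbered pair, a share not computed over all tested genes. The 7 were measured in the same libraries, so they are not independent of each other. For 6 of the 7 the groups did not overlap (36.4% of all tested genes), but only Mcm3 and Pcna passed the test (8.43% of all tested genes were called lower). Mcm3 was at 364, 356 and 373 CPM in RA GFP+ libraries against 525, 476 and 490 CPM in RA GFP- libraries, and it fell by 0.45 on the log2 scale (SE 0.11, edgeR adjusted p = 0.0147; 0.0601 and 0.0718 without RA GFP+ replicate 1 and 2). Pcna was at 197, 184 and 176 CPM in RA GFP+ against 292, 272 and 220 CPM in RA GFP-, and it fell by 0.50 (SE 0.13, adjusted p = 0.0199). Pcna did not pass with RA GFP- replicate 1 or 2, or else RA GFP+ replicate 2 or 3, left out (adjusted p = 0.0626 to 0.0796).

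Mcm5 had as large a difference with a wider error. It was at 361, 355 and 342 CPM in RA GFP+ against 525, 498 and 462 CPM in RA GFP- (log2 fold change -0.49, SE 0.16, edgeR adjusted p = 0.0564; 0.0190 with the replicate block in all 9 libraries and 0.00538 without SAG GFP+ replicate 1). Mcm6 was at 414, 410 and 412 CPM in RA GFP+ against 545, 484 and 476 CPM in RA GFP- (log2 fold change -0.28, adjusted p = 0.0807; 0.0475 with that block). The 95% intervals for Mcm2, Mcm4 and Mcm7 ran from -0.48 to 0.07, -0.45 to 0.10 and -0.45 to 0.04 on the log2 scale.

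Among the replication members in SAG GFP+, Mcm5 was at 478, 320 and 301 CPM in SAG GFP+ replicates 1, 2 and 3, and Mcm3 at 441, 370 and 362 CPM, so replicate 1 was highest for both genes. Without it Mcm5 was called lower in SAG GFP+ over RA GFP- (log2 fold change -0.65, adjusted p = 0.00151). In the reported edgeR fit none of the 7 was called in SAG GFP+ over RA GFP+. Pcna alone had an unadjusted p under 0.05, with 268, 231 and 224 CPM in SAG GFP+ against 197, 184 and 176 CPM in RA GFP+ (log2 fold change 0.38, SE 0.13, adjusted p = 0.0502), and DESeq2 called it (adjusted p = 0.0360). In all, Pcna was called in 8 of the 16 alternatives, among them edgeR with the replicate block in all 9 libraries. Mcm3 fell in SAG GFP+ over RA GFP- by 0.35 (SE 0.11, edgeR adjusted p = 0.0335), a call lost when any library but SAG GFP+ replicate 1 was left out (adjusted p = 0.0507 to 0.150). The summed level of the 7 was 3316, 2781 and 2580 CPM in SAG GFP+, 2681, 2638 and 2569 CPM in RA GFP+, and 3439, 3296 and 3055 CPM in RA GFP-.

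The mitosis members code for Ki-67, which coats mitotic chromosomes, topoisomerase IIα, the Aurora kinases A and B, the spindle checkpoint kinase BUB1, survivin (Birc5) and Polo-like kinase 1. In RA GFP+ over RA GFP- edgeR called none of the 7, none had an unadjusted p under 0.05, and DESeq2 called none. Their log2 fold changes were between -0.22 (Birc5) and 0.16 (Plk1), with 95% intervals of -0.27 to 0.35 for Top2a and -0.29 to 0.25 for Bub1. In SAG GFP+ over RA GFP+ all 7 had a positive log2 fold change (0.16 to 0.69), as did 8135 of 16772 tested genes, and the reported edgeR fit called none. Mki67 alone had an unadjusted p under 0.05 in that fit and was called by DESeq2. In all, Mki67 was called in 9 of the 16 alternatives. With the replicate block in all 9 libraries, edgeR also called Aurkb and Bub1 higher (Bub1 adjusted p = 0.0477). In that blocked fit the count called higher over all tested genes rose too, from 1641 to 2271.

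Mki67 was at 713, 891 and 1189 CPM in SAG GFP+ libraries, 466, 556 and 716 CPM in RA GFP+ libraries, and 355, 547 and 722 CPM in RA GFP- libraries. The groups overlapped, and within each group replicate 3 was highest and replicate 1 lowest. Mki67 rose in SAG GFP+ over RA GFP- (log2 fold change 0.78, SE 0.26, edgeR adjusted p = 0.0406) and its log2 fold change of 0.69 (SE 0.26) in SAG GFP+ over RA GFP+ was not called (adjusted p = 0.0739; 0.0361 by DESeq2 and 0.0297 without SAG GFP+ replicate 1). Plk1 was at 242, 232 and 256 CPM in SAG GFP+, 208, 193 and 226 CPM in RA GFP+, and 216, 163 and 181 CPM in RA GFP-, with SAG GFP+ above all other libraries. It rose in SAG GFP+ over RA GFP- (log2 fold change 0.38, SE 0.12, adjusted p = 0.0377). The rises of Mki67 and Plk1 did not pass when replicate 2 of any group or SAG GFP+ replicate 3 was left out. That of Mki67 also depended on RA GFP- replicate 1 (adjusted p of up to 0.148), and that of Plk1 on RA GFP- replicate 3 and RA GFP+ replicate 1 (adjusted p of up to 0.134).

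The 7 mitosis members summed to 2640, 3029 and 3376 CPM in SAG GFP+, 2159, 2186 and 2776 CPM in RA GFP+, and 2211, 2106 and 2597 CPM in RA GFP-. The ratio of the mitosis sum to the replication sum was 1.06 ± 0.257 in SAG GFP+, 0.905 ± 0.153 in RA GFP+ and 0.711 ± 0.121 in RA GFP- (SD, n = 3 each). It was 0.796 in SAG GFP+ replicate 1 against 1.09 and 1.31 in the other libraries of that group, and the groups overlapped.

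**Figure D5:**
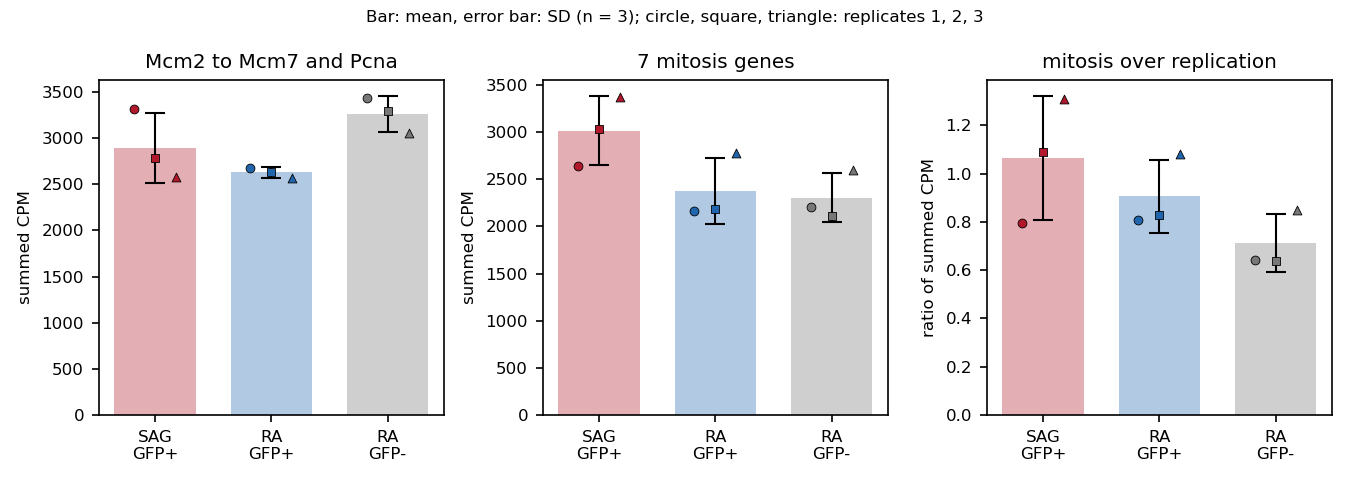
Summed CPM of the 7 replication members (left), of the 7 mitosis members (middle) and the ratio of the second sum to the first (right), for each group; bars are means, error bars SD (n = 3), and symbols mark the replicate numbers. The replication sum is 2569 to 2681 CPM in RA GFP+ against 3055 to 3439 CPM in RA GFP-, and the mitosis sums of these groups overlap.

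The promoters of replication and mitosis members are shown because all 7 replication members had negative log2 fold changes in RA GFP+ over RA GFP-, while those of the mitosis members lay on both sides of 0. Genes of S phase are known for E2F sites, and genes of G2 and mitosis for a cell cycle homology region (CHR) and CCAAT boxes. The windows are the 250 bases before a start of the gene in RefSeq (GRCm38.p6), printed 5′ to 3′ on the gene's strand. Capitals mark exact matches to TTTGAA (CHR), to CCAAT and to the E2F words TTTGGCGC, TTTCCCGC, TTTCGCGC and TTTGCCGC, on either strand. For genes with more than 1 start, such as E2f2, a match in any window counted. Some windows, as those of E2f1 and Cdk6 and 1 of E2f2, lie inside the gene's coordinates in GENCODE. The only TTTGAA of E2f2 is in such a window. Mcm3, Mcm5 and Mcm6 are shown for the replication members, Mki67 and Top2a for the mitosis members, and Ccnb2 for the B cyclins. Mki67 and Top2a are the 2 of 6 mitosis members with a window that hold TTTGAA. Aurka, Bub1, Birc5 and Plk1 hold none and are not shown. Their windows are chr1:20820313-20820562 (Mcm3, minus strand), chr8:75109259-75109508 (Mcm5, plus strand), chr1:128359706-128359955 (Mcm6, minus strand), chr7:135716380-135716629 (Mki67, minus strand), chr11:99024190-99024439 (Top2a, minus strand) and chr9:70421555-70421804 (Ccnb2, minus strand).
Mcm3: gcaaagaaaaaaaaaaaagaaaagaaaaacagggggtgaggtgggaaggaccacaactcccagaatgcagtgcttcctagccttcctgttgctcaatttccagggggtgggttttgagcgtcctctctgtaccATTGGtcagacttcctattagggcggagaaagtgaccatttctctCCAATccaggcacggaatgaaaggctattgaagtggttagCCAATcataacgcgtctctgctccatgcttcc
Mcm5: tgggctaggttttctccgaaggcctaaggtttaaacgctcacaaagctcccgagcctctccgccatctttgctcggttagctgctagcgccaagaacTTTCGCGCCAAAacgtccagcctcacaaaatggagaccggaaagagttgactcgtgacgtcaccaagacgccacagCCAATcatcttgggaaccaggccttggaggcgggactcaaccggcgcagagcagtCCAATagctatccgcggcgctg
Mcm6: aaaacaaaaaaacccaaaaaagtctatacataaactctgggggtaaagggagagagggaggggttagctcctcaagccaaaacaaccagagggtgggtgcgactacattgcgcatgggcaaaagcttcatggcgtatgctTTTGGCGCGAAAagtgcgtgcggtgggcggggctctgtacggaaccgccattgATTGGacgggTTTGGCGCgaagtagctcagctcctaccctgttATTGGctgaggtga
Mki67: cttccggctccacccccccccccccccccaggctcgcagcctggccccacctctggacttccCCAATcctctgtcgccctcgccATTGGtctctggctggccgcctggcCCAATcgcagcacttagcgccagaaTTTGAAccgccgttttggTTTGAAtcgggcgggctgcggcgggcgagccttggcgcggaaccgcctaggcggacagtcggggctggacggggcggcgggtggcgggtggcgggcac
Top2a: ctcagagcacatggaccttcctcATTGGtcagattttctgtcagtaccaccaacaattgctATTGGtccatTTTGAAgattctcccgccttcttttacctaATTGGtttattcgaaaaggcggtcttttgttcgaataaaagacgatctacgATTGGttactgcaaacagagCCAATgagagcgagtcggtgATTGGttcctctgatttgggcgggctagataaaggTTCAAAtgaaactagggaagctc
Ccnb2: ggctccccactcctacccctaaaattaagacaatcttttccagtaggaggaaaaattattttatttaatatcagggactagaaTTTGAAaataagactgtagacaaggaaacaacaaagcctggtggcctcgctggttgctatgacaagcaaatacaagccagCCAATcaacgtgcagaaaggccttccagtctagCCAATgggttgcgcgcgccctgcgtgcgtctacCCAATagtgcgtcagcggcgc
In Mcm5 and Mcm6, E2F words on the 2 strands overlap in 1 run of capitals. In Ccnb2 the TTTGAA lies 5′ of all 3 CCAAT matches. Of the 29 members with a window, 7 (24.1%) held an E2F word against 2.16% of 27025 genes with a window, 19 (65.5%) held CCAAT against 37.5%, and 8 (27.6%) held TTTGAA against 18.3%. An E2F word was in 3 of 6 replication members with a window (Mcm5, Mcm6 and Mcm7) and in none of 6 mitosis members, and CCAAT was in 6 of 6 and 5 of 6. TTTGAA together with CCAAT was in 2 of 3 B cyclin and CDK1 genes, 2 of 6 mitosis members and 1 of 6 replication members, against 7.34% of all genes with a window. The members that fell in RA GFP+ over RA GFP- (E2f1, E2f2, Mcm3 and Pcna) held none of the E2F words, and Mcm6, which was not called, held 3. A match is a description of the letters in these windows. Ccnd1, Ccnd2, Ccne2, Ccna2, Rb1, Mcm4, Aurkb and Myc have no window here.

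Myc and Mycn code for related transcription factors that promote growth and G1 progression, and Mycn is the family member known for neural progenitors. Mycn was at 168, 139 and 160 CPM in SAG GFP+, 153, 136 and 153 CPM in RA GFP+, and 223, 160 and 163 CPM in RA GFP-, and it was called in none of the comparisons. Myc was at 19.0, 8.32 and 9.73 CPM in SAG GFP+ libraries, 18.2, 29.9 and 31.7 CPM in RA GFP+ libraries, and 15.2, 23.7 and 14.2 CPM in RA GFP- libraries. Replicate 1 of SAG GFP+ was above replicate 1 of RA GFP+, so the groups overlapped, but SAG GFP+ replicates 2 and 3 were below all RA libraries. Myc fell by 1.11 on the log2 scale in SAG GFP+ over RA GFP+ (SE 0.33, edgeR adjusted p = 0.0301), which did not pass when RA GFP+ replicate 2 or 3 or SAG GFP+ replicate 2 or 3 was left out (adjusted p = 0.0845 to 0.117). In RA GFP+ over RA GFP- its log2 fold change of 0.59 was not called (adjusted p = 0.264; 0.0308 with the block in the RA libraries alone). Without SAG GFP+ replicate 1, Myc was also called lower in SAG GFP+ over RA GFP- (log2 fold change -0.95, adjusted p = 0.0278). Mycn made up 91.5%, 82.1% and 89.2% of the summed FPKM of both in SAG GFP+, RA GFP+ and RA GFP-.

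Other genes of the same processes were read from 6 lists of 131 genes. Of 32 other G1/S and replication genes, 9 fell and none rose in RA GFP+ over RA GFP- (28.1% called, against the 8.43% of all tested genes called lower), 31 had a negative log2 fold change, and the median was -0.31 against -0.02 over all tested genes. At an unadjusted p under 0.05, 12 were lower and none higher, and DESeq2 called 10 lower and none higher. DESeq2 called 1745 of all 16772 tested genes lower in this comparison. Here and in the lists below, the share of all tested genes at the unadjusted threshold was not computed. Rrm2, a subunit of ribonucleotide reductase, was at 291, 300 and 289 CPM in RA GFP+ against 463, 504 and 408 CPM in RA GFP- (log2 fold change -0.64, SE 0.13, edgeR adjusted p = 0.00518). Lig1, DNA ligase I, fell by 0.47 (SE 0.11, adjusted p = 0.0120). The count was 16 with the replicate block in the RA libraries alone, and 2, 1 and 5 without RA GFP+ replicate 1, 2 and 3. Of the 32, 2 (6.25%, against the 9.78% of all tested genes called higher) rose in SAG GFP+ over RA GFP+, Lig1 (0.39, adjusted p = 0.0226) and the DNA polymerase α subunit gene Pola1 (0.40, adjusted p = 0.0357). No rise was called with RA GFP+ replicate 1 or 2 left out, and 1 with SAG GFP+ replicate 2 left out. With RA GFP- replicate 1 or 3 left out, 6 or 4 rose, and with SAG GFP+ replicate 3 left out, 5 rose. Without SAG GFP+ replicate 1, 4 fell. In all, 6 of the 32 (18.8%, near the 16.5% of all tested genes called lower) fell in SAG GFP+ over RA GFP-, led by the origin recognition gene Orc1 (-0.62, adjusted p = 0.00431) and the single-strand binding protein gene Rpa2 (-0.73, adjusted p = 0.00750). With replicate 2 of RA GFP- or SAG GFP+ left out 3 fell, with SAG GFP+ replicate 3 left out 2 fell, and with RA GFP- replicate 3 left out 10 fell.

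Of 40 other G2/M and mitosis genes, 4 fell in RA GFP+ over RA GFP- (10% called, against the 8.43% of all tested genes called lower) with a median log2 fold change of -0.03. Mybl2 (B-Myb), which activates G2/M genes with the MuvB complex and is also abundant in embryonic stem cells, was at 63.0, 64.9 and 69.0 CPM in RA GFP+ against 215, 185 and 237 CPM in RA GFP- (log2 fold change -1.70, SE 0.15, edgeR adjusted p = 3.2e-05). The phosphatase gene Cdc25b fell by 1.02 (SE 0.19, adjusted p = 0.00403). Mybl2 and Cdc25b thus moved with the pluripotency markers of RA GFP- given above, whose part was not tested. In SAG GFP+ over RA GFP+ 12 of the 40 rose and none fell (30% called, against the 9.78% of all tested genes called higher; median 0.21). At an unadjusted p under 0.05, 17 were higher and 1 lower, and DESeq2 called 15 higher, against 2043 of all 16772 tested genes. The kinesin gene Kif15 was at 204, 240 and 248 CPM in SAG GFP+ against 129, 129 and 161 CPM in RA GFP+ (log2 fold change 0.73, SE 0.15, edgeR adjusted p = 0.00382), and Cdc25c rose by 0.57 (SE 0.13, adjusted p = 0.00752). With RA GFP+ replicate 1 or 2 left out the count was 4 or 2, and with SAG GFP+ replicate 2 or 3 left out it was 4. In SAG GFP+ over RA GFP- 10 rose and 2 fell (30% called, near the 28.5% of all tested genes), with Mybl2 at a log2 fold change of -1.90 (adjusted p = 6e-06) and the centromere gene Cenpe at 0.74 (adjusted p = 0.00217). The rises numbered 4 or 5 without RA GFP- replicate 2 or SAG GFP+ replicate 2 or 3. The summed levels of neural progenitor and neuron markers were also higher in SAG GFP+ than in RA GFP+ (1010 to 1080 against 337 to 514 CPM, and 355 to 583 against 76.7 to 88.5 CPM). Of the 6 neural progenitor markers 5 were called higher, while Pax6 was called lower (log2 fold change -1.33, edgeR adjusted p = 0.0481). The part of these markers in these differences was not tested.

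Of the 18 genes of p53 and its targets, 10 fell and none rose in SAG GFP+ over RA GFP+ (55.6% called, against the 14.8% of all tested genes called lower; median log2 fold change -0.61). At an unadjusted p under 0.05, 11 were lower and none higher, and DESeq2 called 11 lower, against 2841 of all 16772 tested genes. Trp53inp1 was at 195, 134 and 131 CPM in SAG GFP+ against 435, 536 and 349 CPM in RA GFP+ (log2 fold change -1.52, SE 0.21, edgeR adjusted p = 0.000299). The kinase gene Plk2 was at 26.97, 10.3 and 13.4 CPM in SAG GFP+ against 51.5, 82.0 and 67.9 CPM in RA GFP+ (log2 fold change -1.99, SE 0.32, adjusted p = 0.000910). Mdm2, the ubiquitin ligase of p53, fell by 0.91 (SE 0.15, adjusted p = 0.00112), and it is named here after its value was seen. Of the 18, 10 also fell in SAG GFP+ over RA GFP- (against the 16.5% of all tested genes called lower), led by Gadd45a (log2 fold change -1.70, adjusted p = 4.6e-05) and Bbc3 (PUMA; -0.86, adjusted p = 0.000817), with 6, 5 and 5 falls without RA GFP- replicate 1, SAG GFP+ replicate 2 and SAG GFP+ replicate 3. Some endoderm and mesenchyme markers were also lower in SAG GFP+ than in RA GFP+: 3 of 6 tested endoderm and 4 of 8 mesenchyme markers fell, against the 14.8% of all tested genes called lower. The endoderm marker Cxcr4 rose, 2 endoderm and 4 mesenchyme markers were not called, and the endoderm sums of these groups overlapped. Sox17 was at a log2 fold change of -6.77 (edgeR adjusted p = 1.1e-05) and Foxc2 at -1.93 (adjusted p = 0.00408). The part of these markers in the levels of Cdkn1a, Cdkn2b, Cdkn1c and the p53 targets was not tested. In RA GFP+ over RA GFP- 2 rose (Eda2r, 0.79, adjusted p = 0.0138, and Trp53inp1, 0.68, adjusted p = 0.0377) and 2 fell (Gadd45a, -0.65, adjusted p = 0.0236, and Trp53 itself, -0.57, adjusted p = 0.0458), which is 22.2% called against 16.9% of all tested genes. Of the rises, 0 were called with RA GFP+ replicate 2 left out. With RA GFP+ replicate 1 or RA GFP- replicate 1 or 3 left out, 1 was. Of the falls, 0 were called with any RA GFP+ replicate or RA GFP- replicate 1 left out. With RA GFP- replicate 2 or 3 or SAG GFP+ replicate 2 left out, 1 was.

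Among 17 tested genes of other cyclins, CDK regulators and protein degradation, Cdkn1c (p57), the other Cip/Kip inhibitor, was also highest in RA GFP+ and lowest in SAG GFP+. It was at 151, 158 and 183 CPM in SAG GFP+ libraries, 473, 487 and 358 CPM in RA GFP+ libraries, and 221, 273 and 226 CPM in RA GFP- libraries, with no overlap between groups. Cdkn1c rose in RA GFP+ over RA GFP- (log2 fold change 0.87, SE 0.14, edgeR adjusted p = 0.00174), fell in SAG GFP+ over RA GFP+ (-1.42, SE 0.15, adjusted p = 5e-05) and fell in SAG GFP+ over RA GFP- (-0.55, SE 0.14, adjusted p = 0.0150). The ubiquitin ligase scaffold gene Cul4a rose in RA GFP+ over RA GFP- (0.47, adjusted p = 0.00880) and in SAG GFP+ over RA GFP- (0.41, adjusted p = 0.0123), and Ccnh, the cyclin of the CDK-activating kinase, rose in SAG GFP+ over RA GFP+ (0.63, adjusted p = 0.0112). In all, 2 rose and 3 fell in RA GFP+ over RA GFP-, 2 rose and 2 fell in SAG GFP+ over RA GFP+, and 1 rose and 2 fell in SAG GFP+ over RA GFP-. These are 29.4%, 23.5% and 17.6% called, against 16.9%, 24.5% and 28.5% of all tested genes. Leaving out 1 library brought the falls to 1 (RA GFP+ replicate 1) or 0 (RA GFP+ replicate 2) in the first comparison. In the second, the rises were at 1 and 0 without those libraries, and the falls at 1 with replicate 2 of any group, RA GFP+ replicate 1 or SAG GFP+ replicate 3 left out. In the third, the falls were at 0 without SAG GFP+ replicate 2 and at 1 without each other library but RA GFP+ replicate 3.

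Of 14 other E2F, pocket protein and DREAM complex genes, the pocket protein gene Rbl2 (p130) fell in RA GFP+ over RA GFP- (log2 fold change -0.96, SE 0.22, edgeR adjusted p = 0.0110), Rbl1 (p107) rose in SAG GFP+ over RA GFP+ (0.61, SE 0.17, adjusted p = 0.0232), and E2f5 and E2f6 rose in SAG GFP+ over RA GFP- (0.61, adjusted p = 0.00755, and 0.53, adjusted p = 0.00566). Neither call of a pocket protein gene held with RA GFP+ replicate 1 or 2 left out, and that of Rbl1 also not without SAG GFP+ replicate 2 or 3. These are all the calls in this list. They are 7.14%, 7.14% and 14.3% called in the 3 comparisons in that order, below the 16.9%, 24.5% and 28.5% of all tested genes. Of 9 other MYC network genes, Mycl was at 200, 163 and 135 CPM in SAG GFP+ libraries, 43.0, 62.6 and 77.0 CPM in RA GFP+ libraries, and 96.5, 124 and 124 CPM in RA GFP- libraries, and no groups overlapped. Mycl fell by 0.92 on the log2 scale in RA GFP+ over RA GFP- (SE 0.21, adjusted p = 0.0110) and rose by 1.45 in SAG GFP+ over RA GFP+ (SE 0.21, adjusted p = 0.000520). Mxd3, a MAX partner that represses transcription, fell by 0.89 in RA GFP+ over RA GFP- (adjusted p = 0.0221) and by 1.14 in SAG GFP+ over RA GFP- (adjusted p = 0.00423), where Mga (0.50, adjusted p = 0.0258) and Mxi1 (0.87, adjusted p = 0.0361) rose. Neither rise was called without RA GFP- replicate 2 or SAG GFP+ replicate 2 or 3. The calls named are all those of the MYC network list. They are 22.2%, 11.1% and 33.3% called in the same order of comparisons, against 16.9%, 24.5% and 28.5% of all tested genes.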

How the data were processed

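Per the labels' protocols, poly(A) RNA was made into libraries with a directional kit from 1.2 µg of total RNA. The submitters' processing notes name GRCm38, Subread 1.6.2 with featureCounts, Bowtie2 2.3.4.1 and Trim Galore 0.5.0. The strand setting, annotation release and multi-mapping rule were not given in the sources used here, so the 13 members that share exon bases with another gene are less certain. The authors deposited raw counts per Ensembl gene, with no normalization, and 24114 of the 54532 genes are at 0 in all libraries.

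Genes were kept by edgeR's filterByExpr (minimum count 10). The 9 libraries were fitted together with edgeR 4.0.16 (R 4.3.3; TMM factors 0.972 to 1.029; quasi-likelihood test), with a mean per group and Benjamini-Hochberg adjustment over the 16772 genes tested. An SE is the log2 fold change over the square root of the F statistic. CPM used the tested genes' counts and TMM factors, and FPKM is that CPM per kilobase of summed exons in GENCODE M21. DESeq2 1.42.0 was an alternative. The labels call the samples biological replicates and do not say whether they came from separate cultures, so p-values may measure technical spread. Replicates correlated at r = 0.970 to 0.986 across genes, and no pair agreed within sampling noise. RA GFP+ and RA GFP- libraries of the same number deviated together (r = 0.273, 0.307 and 0.347 for numbers 1, 2 and 3), a pairing read from the data and not stated in the labels. Intervals and floors cover counting error only where they come from counts. In each other list, the called genes with the smallest adjusted p were named (2 per list and comparison), plus those marked or counted in full. The members and lists were chosen with earlier results of these data known.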

Additional observations from a re-analysis of the deposited data

How the results depend on the processing

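Of 1776 member results under 16 alternatives (37 members, 3 comparisons), 1638 stayed on their side of the threshold, 66 calls were lost, 72 were gained and none of the called values changed sign. In RA GFP+ over RA GFP-, 4 members fell and 2 rose in the reported fit. DESeq2 called 8 lower. With the replicate block 8 fell in all 9 libraries, and 11 fell and 4 rose in the RA libraries alone. Leaving out 1 library gave 2 to 6 falls and 2 to 3 rises. In SAG GFP+ over RA GFP+, 2 rose and 6 fell. DESeq2, no low-count filter and a fit of the 2 groups alone each called 4 higher, and leaving out 1 library gave 0 to 4 rises and 4 to 7 falls. The replicate block gave 7 rises in all 9 libraries and 5 in the 2 groups alone. The same-numbered libraries correlated at 0.111, -0.082 and 0.182 (SAG GFP+ with RA GFP+) and 0.175, -0.022 and 0.242 (with RA GFP-). SAG GFP+ replicate 3 correlated best with its own number in both RA groups, and replicate 1 did so in RA GFP- only. SAG GFP+ replicate 2 correlated best with replicate 3 of both RA groups (0.114 in RA GFP+ and 0.139 in RA GFP-). Whether SAG GFP+ and RA libraries share more than a number was not settled here. In SAG GFP+ over RA GFP-, 5 rose and 8 fell. A fit of the 2 groups alone called 2 higher and its blocked form 3, and leaving out 1 library gave 2 to 5 rises and 5 to 11 falls. The cause of these shifts was not tested, but fits without a library have fewer samples. Calls over all tested genes shifted in these settings too. In RA GFP+ over RA GFP-, DESeq2 called 1732 higher and 1745 lower, and the blocked fit of the RA libraries alone 2615 and 2625. RLE factors and a minimum count of 50 kept all 6 counts within 1.5 times. The counts for the other gene lists under the same alternatives were added after seeing the data. Depth limits Cdkn2b and Cdkn2c most (844 and 1407 counts in all).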

Other observations

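Several members were highest in the same replicate number of each group. For 15 of the 37 members the same replicate number was highest in all 3 groups, number 1 for 11 of them, number 2 for 1 and number 3 for 3 (E2f1, Mki67 and Aurkb). The replication sum was highest in replicate 1 of each group (3316 CPM in SAG GFP+, 2681 CPM in RA GFP+ and 3439 CPM in RA GFP-), and the mitosis sum was highest in replicate 3 of each (3376, 2776 and 2597 CPM in the same order). The share of all tested genes with the same highest number in each group was not computed. Same-numbered RA GFP+ and RA GFP- libraries deviated together across all tested genes, so this need not be particular to the members. The labels do not say what a number marks.

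The summed level of p53 and 17 of its targets was 1424 ± 206 CPM in SAG GFP+, 2052 ± 237 CPM in RA GFP+ and 1933 ± 72.5 CPM in RA GFP- (SD, n = 3 each), while Cdkn1a, another p53 target, was higher in RA GFP+ than in both other groups.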
